A study of Mus musculus with 9 samples.

Results

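A set of 10 genes that glucocorticoids are known to induce, or that belong to the metallothionein family often induced with them, were followed across 3 brain regions and 3 feeding regimens in mice. They were taken by symbol as Fkbp5, Sgk1, Tsc22d3, Klf9, Zbtb16, Pdk4, Ddit4, Hif3a, Mt1 and Mt2, through the RefSeq accession printed for each array probe. The accessions of 14 probes on 23 spots matched 9 of the 10 genes, out of 16358 genes that matched in all. Zbtb16 matched no probe and was not analysed here. Each of the 9 genes had a probe well above background on all 9 arrays, so all 9 passed the filter on dim genes.

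The samples came from male wild-type C57BL/6J mice 8 to 9 weeks old. Mice fed ad libitum (AD) were the controls, mice of the repeated fasting and refeeding group (RFR) alternated a day without food with a day of free feeding, and mice under caloric restriction (CR) received a ration set from what the RFR mice had eaten. RNA was prepared on day 8 from amygdala, hypothalamus and prefrontal cortex, from mice killed at 14:00 under ether and perfused with saline, and RNA of 4 mice was pooled for each region and diet. The labels give 20:00 as the hour of the feeding switch and day 16 as the last day of the regimens. Whether the RFR mice had food before they were killed is not given in the sources used here. The labels place the slice for prefrontal cortex 2.5 to 3.5 mm posterior to bregma, behind the slice for amygdala and hypothalamus (1.5 to 2.5 mm). Prefrontal cortex lies in front of bregma in the mouse, so the labelled name is kept here but which part of the cortex was taken is uncertain. One single-colour Agilent array was hybridised per pool, so there were 9 arrays and no replicate of any region and diet. The 3 regions of a diet were taken as coming from the same mice, so the p-values for diets are too small. In these tissue samples, fewer cells of a type and less RNA per cell cannot be told apart.

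Corticosterone, the main glucocorticoid of mice, enters cells and binds the glucocorticoid receptor, which moves to the nucleus and raises transcription of genes that carry its response elements. Food deprivation is a known stimulus of corticosterone release, and the hormone also follows the daily feeding rhythm. Metallothioneins are small cysteine-rich proteins that bind zinc and copper. Their genes respond to zinc through the factor MTF1 and its metal response elements, and to glucocorticoids.

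All values below are log2 signals relative to the 75th percentile of the same array, so 0 marks that percentile and 1 unit is a doubling. The level of one probe cannot be set against that of another, and every comparison of a gene is therefore within a probe. The summed levels of markers add several probes, are led by the brightest of them, and are not amounts of a cell type. The brightest probe stands for a gene unless another is named, and counts over the 9 genes use it also for Fkbp5, Tsc22d3 and Klf9, whose other probes gave other differences between diets. Between 25958 and 30199 of 43379 spots per array were well above background, and the small number of arrays limits the precision. Slide 1 held 4 arrays (the 3 AD arrays and the RFR prefrontal cortex), slide 2 held 4 (the RFR amygdala, the RFR hypothalamus, the CR hypothalamus and the CR prefrontal cortex), and the CR amygdala array lay alone on slide 3. Of 8 hypothalamic neuron genes, 8 were higher in hypothalamus than in prefrontal cortex with an adjusted p under 0.05 in limma. At that threshold 7 of the 8 were lower in amygdala than in hypothalamus. However, 7 were also higher in amygdala than in prefrontal cortex, with a median of 3.1. Only 4 of the 8 were well above background on all 9 arrays, so the size of that median is uncertain. Of 7 amygdala neuron markers, 5 were higher and 1 lower in amygdala than in hypothalamus, with the same counts against prefrontal cortex. The part of hypothalamic transcripts in the amygdala values was not tested. Of 7 markers of cortical excitatory neurons, 6 were higher in prefrontal cortex than in hypothalamus and 6 than in amygdala at that threshold, and such markers do not tell prefrontal from other cortex. Between RFR and AD 2 genes passed that threshold, both higher on RFR. These were Prl and Gh, which encode pituitary hormones and were well above background on each RFR array and on no AD or CR array.

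The metallothionein genes Mt1 and Mt2 and the kinase gene Sgk1 had their lowest level on the RFR array in each of the 3 regions. No other of the 9 had that order by its brightest probe, though a second probe of Klf9 did. No diet difference of the 9 genes passed the adjusted threshold, which at most 0.0158% of all genes passed in a diet contrast. Between regions 2 to 4 of the 9 passed in a contrast, against 22.3 to 48.0% of all genes, and 4 of the 9 passed in at least 1. Tsc22d3 and Mt2 were higher in hypothalamus, and Klf9 and Pdk4 were higher in prefrontal cortex.

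**Figure D1:**
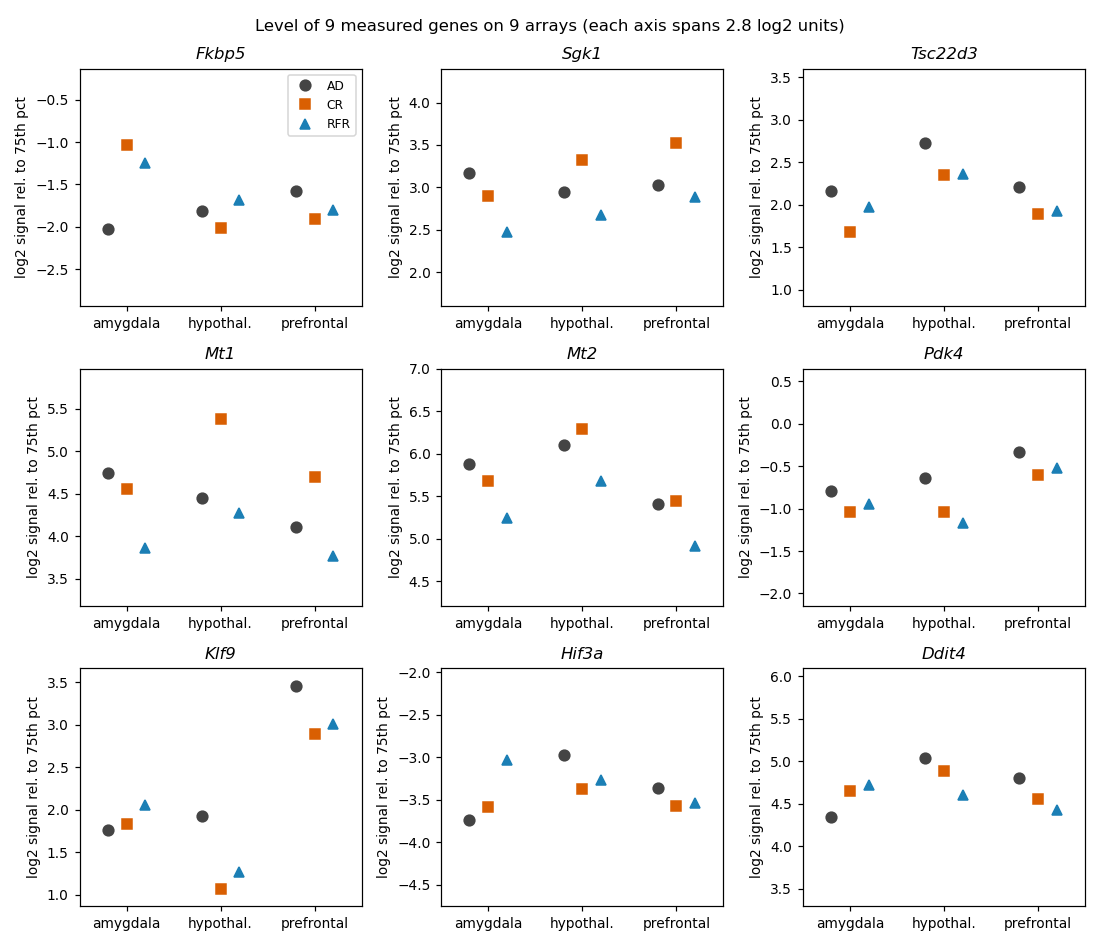
Level of the 9 measured genes on the 9 arrays, as log2 signal relative to the array's 75th percentile (vertical axis), by region (horizontal axis) and diet (symbols). Each point is 1 array of a pool of 4 mice. Sgk1, Mt1 and Mt2 have their lowest point on RFR in every region, and Klf9 stands higher in prefrontal cortex than in the other 2 regions.

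Mt1 and Mt2 are neighbours on chromosome 8 of the GRCm38.p6 assembly, Mt2 at 94172618 to 94173567 and Mt1 at 94178883 to 94180327, and the start sites of the windows shown are 6471 bp apart, that of Mt1 lying inside its annotated span. Both encode the metallothioneins found in most tissues, which in brain are best known from astrocytes. Their promoter windows, from 250 bases before to 50 bases after the start site of a RefSeq record, are shown because these genes moved together across the arrays. The capitals mark the cores of metal response elements (TGCACNC or TGCGCNC, on either strand).

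Mt1: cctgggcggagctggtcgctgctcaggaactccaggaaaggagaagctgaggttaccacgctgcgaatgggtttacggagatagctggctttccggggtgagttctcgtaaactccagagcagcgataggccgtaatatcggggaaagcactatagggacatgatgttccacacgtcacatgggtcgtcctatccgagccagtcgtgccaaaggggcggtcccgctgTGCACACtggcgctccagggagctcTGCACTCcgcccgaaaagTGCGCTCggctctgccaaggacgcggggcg
Mt2: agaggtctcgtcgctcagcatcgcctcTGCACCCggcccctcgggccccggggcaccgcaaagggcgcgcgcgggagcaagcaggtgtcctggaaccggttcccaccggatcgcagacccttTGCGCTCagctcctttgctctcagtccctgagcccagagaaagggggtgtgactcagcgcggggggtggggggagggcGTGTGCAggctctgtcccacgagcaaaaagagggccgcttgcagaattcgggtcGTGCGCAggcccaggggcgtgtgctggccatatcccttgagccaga

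The Mt1 window is chr8:94178839-94179138 and the Mt2 window chr8:94172368-94172667, both on the plus strand. Mt1 held 3 such cores and Mt2 held 4, where 1.97% of 32851 RefSeq promoter windows of the same length held at least 3 and 0.517% held at least 4. The Mt1 window also held 1 match to the spaced glucocorticoid receptor motif ACANNNTGT, 92 bases before the start site, and 6.85% of windows held a match on either strand. A match describes the letters and is not evidence of binding.

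Mt1 was measured by 1 probe printed on 10 spots per array, whose log2 values had an SD between 0.022 and 0.064 within an array. In the amygdala its level was 4.74 on AD, 4.55 on CR and 3.86 on RFR. In the hypothalamus it was 4.45 on AD, 5.38 on CR and 4.27 on RFR. In the prefrontal cortex it was 4.11 on AD, 4.70 on CR and 3.77 on RFR. RFR was the lowest diet in every region, while CR was above AD in hypothalamus and prefrontal cortex and below it in amygdala. The spot SD covers the reading of 1 pool on 1 array and not the spread between pools.

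Mt2 showed the same lowest diet. Its level in the amygdala was 5.88 on AD, 5.68 on CR and 5.24 on RFR. In the hypothalamus the values were 6.10, 6.29 and 5.68 in the same order, and in the prefrontal cortex 5.41, 5.45 and 4.92. AD and CR lay within 0.19 log2 units of each other in each region, and RFR lay 0.41 to 0.64 below AD.

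Sgk1, on chromosome 10 at 21882184 to 21999903, encodes the serum- and glucocorticoid-regulated kinase, which acts on ion channels and transporters. In the amygdala its level was 3.17 on AD, 2.90 on CR and 2.48 on RFR. In the hypothalamus it was 2.95 on AD, 3.32 on CR and 2.67 on RFR. In the prefrontal cortex it was 3.03 on AD, 3.52 on CR and 2.89 on RFR. The order of diets was thus the same as for Mt1 in each region, and the share of all genes with that order was not computed. Of 6 promoter windows of Sgk1, 2 held the spaced motif ACANNNTGT. Both are shown in full on the plus strand, with the motif in capitals and the name giving the first base on chromosome 10.

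Sgk1 window 21978422: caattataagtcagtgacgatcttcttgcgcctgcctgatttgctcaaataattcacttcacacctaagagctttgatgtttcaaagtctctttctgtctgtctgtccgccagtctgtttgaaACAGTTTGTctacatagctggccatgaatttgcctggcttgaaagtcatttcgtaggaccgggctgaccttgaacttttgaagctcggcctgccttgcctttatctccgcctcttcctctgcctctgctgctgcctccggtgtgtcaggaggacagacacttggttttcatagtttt
Sgk1 window 21993640: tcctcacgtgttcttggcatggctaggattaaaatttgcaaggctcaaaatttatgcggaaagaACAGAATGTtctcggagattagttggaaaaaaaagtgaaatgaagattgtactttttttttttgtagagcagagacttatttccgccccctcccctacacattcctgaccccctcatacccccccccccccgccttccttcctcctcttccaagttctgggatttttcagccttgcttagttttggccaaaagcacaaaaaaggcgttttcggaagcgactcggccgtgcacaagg

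These windows are chr10:21978422-21978721 and chr10:21993640-21993939. The motif began 127 bases before the start site in the first and 186 bases before it in the second. The second window also held 3 matches to the shorter motif TGTTCT on either strand, of which 2 overlap the capitals, 1 at each end. That motif occurred in 19.0% of all windows. The 9 windows of the other 7 genes with a window held no ACANNNTGT.

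Across the 3 regions, CR exceeded RFR by 0.91 ± 0.20 log2 units for Mt1 (limma estimate ± SE, 3 arrays per diet, 1.88-fold), and Mt1 was higher on CR in 3 of 3 regions. The difference was 0.53 ± 0.10 for Mt2 (1.44-fold) and 0.57 ± 0.16 for Sgk1 (1.48-fold), each also in 3 of 3 regions. The limma unadjusted p was 0.0027 for Mt1, 0.0016 for Mt2 and 0.0083 for Sgk1. After Benjamini-Hochberg adjustment over 12619 genes these became 0.16, 0.15 and 0.20 in limma, so none passed 0.05. At that threshold 0.0158% of all genes, 2 in number, passed for CR against RFR and 0 of the 9 genes did. At an unadjusted p under 0.05, 3 of 9 were higher on CR, against 6.61% of all genes, and 0 were lower on CR, against 8.17%. In either direction the share of all genes was 14.8%. A level higher on CR than on RFR in all 3 regions was seen for these 3 genes and for 21.7% of all, and a lower one for Hif3a, for the brightest probes of Tsc22d3 and Klf9, and for 23.4% of all. The second Klf9 probe was higher on CR in all 3 regions and the second Tsc22d3 probe in 2 of 3.

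RFR was below AD by 0.47 ± 0.20 for Mt1, 0.51 ± 0.10 for Mt2 and 0.37 ± 0.16 for Sgk1, each lower in 3 of 3 regions. Their adjusted p in limma was 0.80, 0.55 and 0.80. Between RFR and AD, 0.0158% of all genes passed the adjusted threshold and 0 of the 9 genes did, while 4 of 9 (Sgk1, Tsc22d3, Mt2 and Pdk4) had an unadjusted p under 0.05 and a lower level on RFR, against 3.42% of all genes. No gene of the 9 was higher on RFR at that p, where 2.73% of all genes were, and the share in either direction was 6.16%. A level lower on RFR than on AD in all 3 regions was seen for 5 of 9 (those 4 and Mt1) and for 16.5% of all genes, and a higher one for 0 of 9 and 11.0% of all. RFR was the lowest of the 3 diets in all 3 regions for 3 of the 9 genes and for 4.71% of 12535 genes. These contrasts share arrays, so the order CR over RFR and AD over RFR is not seen in separate samples. With slide as a term in the fit, CR minus RFR was 1.23 ± 0.23 for Mt1, 0.63 ± 0.13 for Mt2 and 0.83 ± 0.17 for Sgk1. The adjusted p was 0.37 for each in limma. The CR amygdala array, alone on slide 3, is taken up by its slide term there, so these estimates hold no CR value of the amygdala.

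Only 2 pairs of diets could be compared on 1 slide. The CR and RFR hypothalamus arrays shared slide 2, and there Mt1 was higher on CR by 1.11, Sgk1 by 0.66 and Mt2 by 0.61 log2 units. By the brightest probes, the difference for Mt1 was the only one that reached 1 log2 unit between 2 diets in a region, while other scalings and the authors' table gave 0 to 4 such differences and the Fkbp5 probe A_52_P481493 had CR minus RFR of -1.13 in the amygdala. In the hypothalamus 0.528% of genes well above background on both of those arrays were that far apart. In the other comparisons the share that far apart was 2.16% in amygdala and 0.819% in prefrontal cortex for CR against RFR. It was 3.26%, 1.34% and 1.13% for CR against AD and 1.47%, 0.691% and 0.971% for RFR against AD, in amygdala, hypothalamus and prefrontal cortex. The AD and RFR prefrontal cortex arrays shared slide 1. By the brightest probes all 9 genes were lower on RFR there, by 0.15 to 0.49 with a median difference of -0.29, whereas the Fkbp5 probe A_52_P481493 was higher on RFR by 0.41. Of all genes, 6017 of 12555 were lower, with a median of 0.01. These differences within a region have no replicate and no test.

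**Figure D2:**
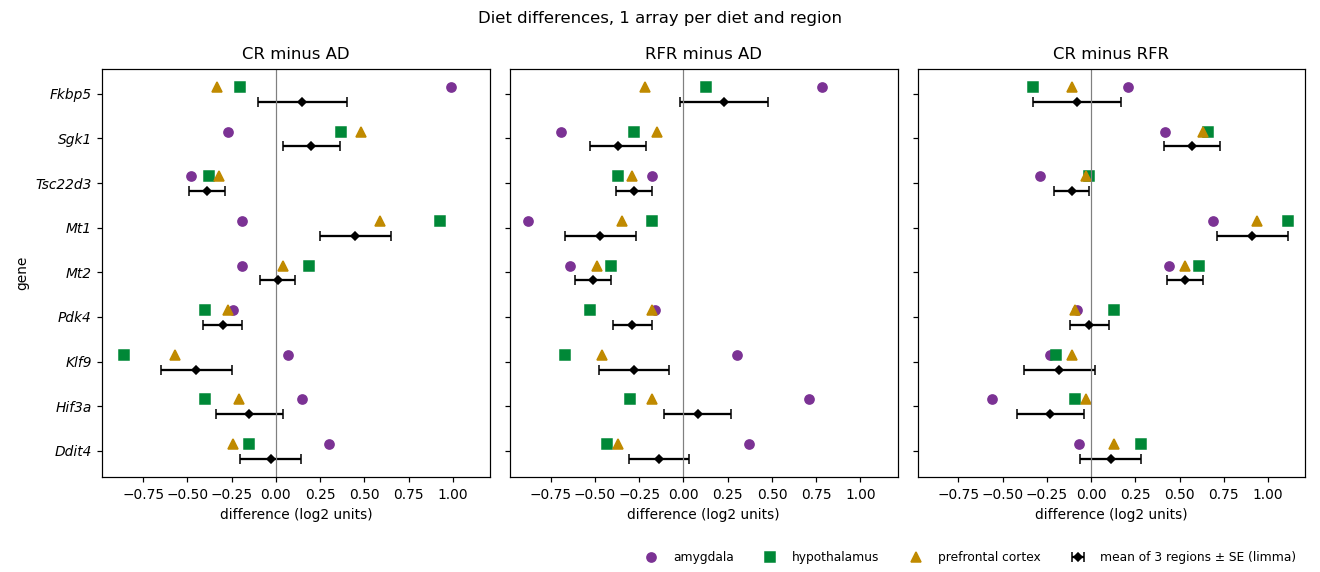
Differences between diets in log2 units (horizontal axes) for the 9 genes (vertical axis), 1 panel for each pair of diets. Coloured symbols are single regions, 1 array minus another, and black diamonds with bars are the limma estimate over 3 regions ± SE. For CR minus RFR the 3 regions of Mt1, Mt2 and Sgk1 all lie above 0, with Mt1 at 0.91 over the regions.

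Other transcripts moved with the low RFR values. Blood markers (4 of 6 measured) had a summed level, in units of the array's 75th percentile, of 2.56 to 15.1 on RFR, 7.71 to 20.0 on AD and 9.84 to 27.5 on CR, and the lowest diet was RFR in each region. Haemoglobin genes were present on all arrays, and Alas2 was well above background on 8 of 9. Oligodendrocyte markers (11 of 12 measured) summed to 58.0 to 167 on RFR, 79.8 to 206 on AD and 106 to 221 on CR. The RFR sum of 58.0, in prefrontal cortex, lacks Mag, which had no value on that array. Mag read 3.74 on AD and 3.98 on CR there, so the 58.0 is too low beside their sums of 79.8 and 106. The 10 markers with a value on both arrays were all higher on CR than on RFR there, with a median of 0.54. All 11 had a higher limma estimate on CR than on RFR, with a median difference of 0.43, and 0 passed the adjusted threshold. Astrocyte markers (10 of 10) summed to 161 to 191 on RFR, 172 to 225 on AD and 149 to 222 on CR, and 9 of 10 were lower on RFR than on AD with a median of -0.24. Neuron markers (10 of 10) summed to 119 to 224 on RFR, 126 to 244 on AD and 132 to 260 on CR, with RFR lowest in each region, and all 10 had a lower estimate on RFR than on AD (median -0.12). Meningeal fibroblast markers (10 of 10) were all higher on CR than on RFR in hypothalamus (median 0.78, summed level 89.8 against 50.7). That sum is led by Ptgds, which read 6.28 on CR and 5.45 on RFR. All 10 were lower on CR in prefrontal cortex (median -0.52). Over all 12619 genes the median was -0.01 for CR minus RFR and -0.03 for RFR minus AD. The part of these transcripts in the values of Mt1, Mt2 and Sgk1 was not tested.

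Tsc22d3, on the X chromosome at 140539528 to 140600522, encodes the glucocorticoid-induced leucine zipper, which damps inflammatory transcription. Its level in the amygdala was 2.16 on AD, 1.68 on CR and 1.97 on RFR. In the hypothalamus it was 2.73 on AD, 2.35 on CR and 2.36 on RFR. In the prefrontal cortex it was 2.21 on AD, 1.89 on CR and 1.93 on RFR. AD was the highest and CR the lowest diet in every region, orders that 7.77% and 13.5% of all genes shared. CR was below AD by 0.39 ± 0.10 (adjusted p = 0.21 in limma), and RFR was below AD by 0.28 ± 0.10 (adjusted p = 0.74 in limma), each in 3 of 3 regions.

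A second Tsc22d3 probe gave another picture of the diets. It read -0.05, 0.16 and 0.10 on AD, CR and RFR in the amygdala, 1.17, 0.72 and 0.85 in the hypothalamus, and 0.66, 0.48 and 0.20 in the prefrontal cortex. AD was the lowest diet in the amygdala by that probe, and CR minus AD over the regions was -0.14 ± 0.16 (adjusted p = 0.70 over probes in limma). In 3 of 3 diets both probes were higher in hypothalamus than in either other region.

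Pdk4, on chromosome 6 at 5483351 to 5496278, encodes a kinase that inhibits pyruvate dehydrogenase and spares glucose, and it is a classical fasting gene of muscle and liver. In the amygdala its level was -0.79 on AD, -1.04 on CR and -0.95 on RFR. In the hypothalamus it was -0.64 on AD, -1.04 on CR and -1.17 on RFR. In the prefrontal cortex it was -0.33 on AD, -0.60 on CR and -0.52 on RFR. AD was again the highest diet in all 3 regions. CR was below AD by 0.30 ± 0.11 (adjusted p = 0.26 in limma) and RFR by 0.29 ± 0.11 (adjusted p = 0.74 in limma).

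Between CR and AD, none of 12619 genes passed the adjusted threshold in limma (0.0%), and 2086 had an unadjusted p under 0.05, which is 16.5%. Of the 9 genes 2, Tsc22d3 and Pdk4, had an unadjusted p under 0.05, both with a lower level on CR, against 10.5% of all genes, and 0 had a higher level, against 5.99%. The same 2 were lower on CR in all 3 regions, as were 24.6% of all genes, and 0 of 9 were higher in all 3, against 12.3%. No region held a CR and an AD array on 1 slide. Without the amygdala arrays, Mt1 (0.76 ± 0.11, adjusted p = 0.043), Sgk1 (0.43 ± 0.07, adjusted p = 0.049) and Klf9 (-0.72 ± 0.10, adjusted p = 0.043) passed in limma for CR minus AD. In that fit 1233 genes passed in all, the CR arrays were on slide 2 and the AD arrays on slide 1, and diet and slide cannot be told apart.

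Klf9, on chromosome 19 at 23141226 to 23168129, encodes a Krüppel-like transcription factor that glucocorticoids and thyroid hormone induce in neurons. In the amygdala its level was 1.76 on AD, 1.83 on CR and 2.06 on RFR. In the hypothalamus it was 1.93 on AD, 1.07 on CR and 1.27 on RFR. In the prefrontal cortex it was 3.46 on AD, 2.89 on CR and 3.01 on RFR. The 3 prefrontal values lay above the 6 others without overlap. CR minus AD was -0.45 ± 0.20 over the regions (adjusted p = 0.31 in limma), with the amygdala value on the other side of 0.

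The second Klf9 probe read 1.14, 1.36 and 0.62 on AD, CR and RFR in the amygdala, 0.20, 0.21 and -0.02 in the hypothalamus, and 2.04, 1.95 and 1.60 in the prefrontal cortex. By it RFR was the lowest diet in every region, and CR minus RFR was 0.44 ± 0.13 where the other probe gave -0.18 ± 0.20. The adjusted p over probes for the second probe was 0.25 in limma. The probes ordered the regions alike in their means.

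Fkbp5, on chromosome 17 at 28398753 to 28486149, encodes a co-chaperone that lowers the hormone affinity of the glucocorticoid receptor and is itself induced by it. Of its 3 probes the brightest read -2.03, -1.04 and -1.25 on AD, CR and RFR in the amygdala, -1.81, -2.01 and -1.68 in the hypothalamus, and -1.58, -1.91 and -1.80 in the prefrontal cortex. By this probe CR was 0.99 above AD in the amygdala and below AD in the other 2 regions.

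The probe A_52_P481493 read -1.43, -2.29 and -1.16 on AD, CR and RFR in the amygdala, -2.46, -2.70 and -1.96 in the hypothalamus, and -2.32, -2.89 and -1.92 in the prefrontal cortex. Here CR was the lowest and RFR the highest diet in all 3 regions. CR minus RFR by it was -0.95 ± 0.13 with an unadjusted p of 0.00022 and an adjusted p of 0.13 over 17674 probes in limma. The brightest probe gave -0.08 ± 0.25 for the same contrast.

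The probe A_52_P337899 gave yet another order of Fkbp5 levels. It read -3.01, -2.71 and -3.18 on AD, CR and RFR in the amygdala, -3.45, -3.42 and -3.54 in the hypothalamus, and -3.28, -3.58 and -3.55 in the prefrontal cortex. Its CR minus RFR was 0.19 ± 0.14. Over the 9 arrays the 3 pairs of Fkbp5 probes had a Pearson r of 0.60, 0.28 and 0.34, against 0.80 for the Tsc22d3 pair and 0.86 for the Klf9 pair. No direction between diets is therefore given for Fkbp5, and which transcripts each probe reads was not tested.

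**Figure D3:**
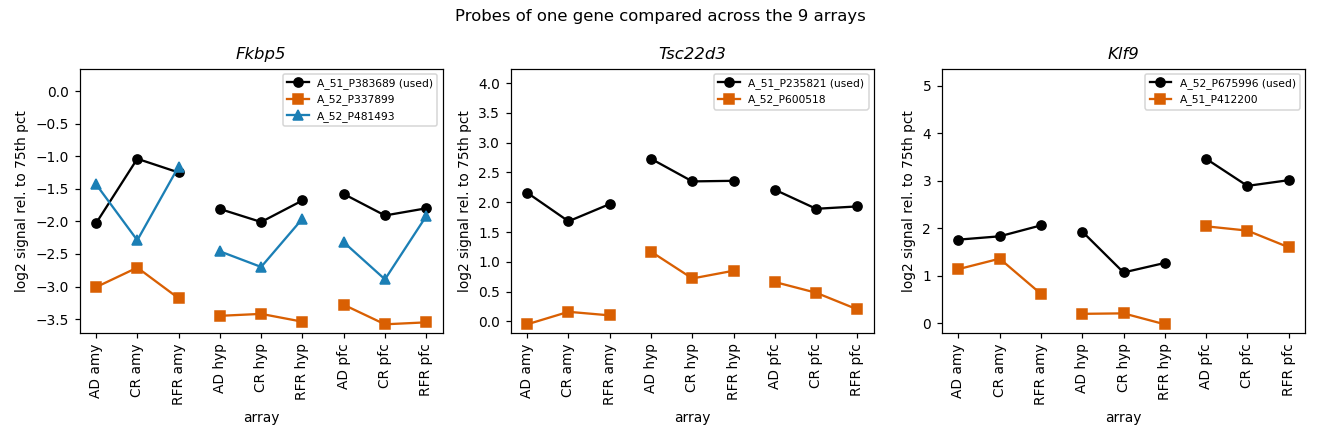
Levels of each probe (log2 signal relative to the 75th percentile, vertical axes) on the 9 arrays (horizontal axes, amy for amygdala, hyp for hypothalamus, pfc for prefrontal cortex) for Fkbp5, Tsc22d3 and Klf9; lines join the 3 diets of a region. In the amygdala the brightest Fkbp5 probe goes from -2.03 on AD to -1.04 on CR, while A_52_P481493 goes from -1.43 to -2.29.

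Hif3a and Ddit4 respond to glucocorticoids and to low oxygen. Hif3a, on chromosome 7 at 17030993 to 17062427, encodes a hypoxia-inducible factor subunit that can oppose the other subunits. It read -3.74, -3.59 and -3.03 on AD, CR and RFR in the amygdala, -2.97, -3.37 and -3.27 in the hypothalamus, and -3.36, -3.57 and -3.54 in the prefrontal cortex. A second Hif3a probe was well above background on 0 arrays.

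Ddit4, on chromosome 10 at 59949675 to 59951770, encodes REDD1, an inhibitor of mTORC1 signalling. Its level was 4.35, 4.65 and 4.72 on AD, CR and RFR in the amygdala, 5.04, 4.89 and 4.61 in the hypothalamus, and 4.80, 4.56 and 4.43 in the prefrontal cortex. RFR was the lowest diet in the hypothalamus and in the prefrontal cortex and the highest in the amygdala. Over the regions, RFR minus AD was -0.14 ± 0.17 for Ddit4 and 0.08 ± 0.19 for Hif3a, with an adjusted p of 0.96 and 0.99 in limma.

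The amygdala differed in sign from the other regions for several genes. RFR was above AD in amygdala and below AD in hypothalamus and in prefrontal cortex for Hif3a (0.71, -0.30 and -0.18) and Ddit4 (0.37, -0.43 and -0.37). The brightest Klf9 probe did the same (0.30, -0.67 and -0.46), but the second gave -0.53, -0.22 and -0.43 and so no change of sign. For CR minus AD the amygdala was on the other side of the other 2 regions for Hif3a and Ddit4 (positive in amygdala) and for Sgk1, Mt1 and Mt2 (negative in amygdala). The brightest probes of Fkbp5 and Klf9 were positive in amygdala only, while the Fkbp5 probe A_52_P481493 was negative in all 3 regions (-0.86, -0.24 and -0.57) and the second Klf9 probe gave 0.22, 0.01 and -0.09. Both sets of differences use the same AD amygdala array. With 1 array per region and diet these differences between regions could not be tested. The CR amygdala array lay alone on slide 3, and 69.6% of its spots were well above background, against 59.8 to 65.0% on the other arrays. Of all genes, 7684 of 12608 were lower on CR than on AD in the amygdala, with a median of -0.11. In the RFR amygdala all 8 measured choroid plexus markers were higher than in the AD amygdala, with a median difference of 1.64. Their summed level was 4.64 against 3.12, and 3 of the 8 were well above background on all 9 arrays. The RFR arrays of the other regions summed to 7.17 and 0.398, against 7.65 and 0.348 on AD, and the part of these transcripts in the amygdala values was not tested.

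**Figure D4:**
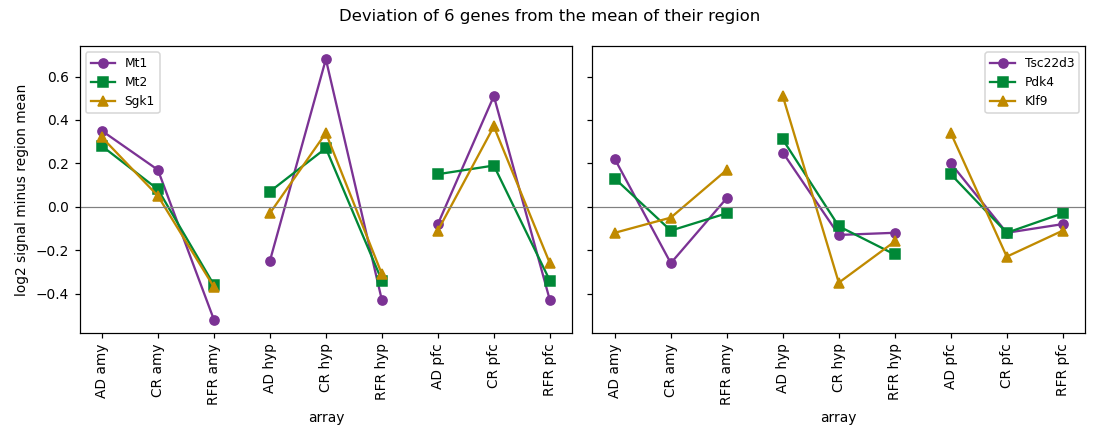
Deviation of 6 genes from the mean of the 3 arrays of their region (log2 units, vertical axis) on each array (horizontal axis; lines join the diets of a region). Mt1, Mt2 and Sgk1 on the left lie below 0 on every RFR array, and Tsc22d3 and Pdk4 on the right lie above 0 on every AD array.

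After the mean of each region was subtracted, the Pearson r over the 9 arrays was 0.97 between Sgk1 and Mt1, 0.90 between Sgk1 and Mt2 and 0.87 between Mt1 and Mt2. It was 0.89 between Tsc22d3 and Pdk4, 0.78 between Pdk4 and Klf9 and -0.04 between Sgk1 and Tsc22d3. Mt1, Mt2 and Sgk1 were thus close to one another, and the highest r of any of them with another of the 9 genes was 0.34, between Mt2 and Pdk4. On the negative side r was -0.66 between Mt1 and Hif3a, -0.64 between Sgk1 and Hif3a and -0.62 between Sgk1 and Fkbp5. Without the subtraction r was 0.71 between Sgk1 and Mt1, 0.36 between Sgk1 and Mt2 and 0.84 between Mt1 and Mt2. It was then 0.60 between Mt2 and Tsc22d3. The share of all gene pairs with such values was not computed. After the subtraction Klf9 had an r of 0.74 with Hif3a, 0.70 with Tsc22d3 and 0.68 with Ddit4, and Hif3a had 0.67 with Ddit4. The arrays share pools of mice, slides and scaling, so these are descriptions of 9 points. Other probes were not entered.

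Between regions, 4 of the 9 genes passed the threshold in at least 1 contrast of the limma fit, which had 3 arrays of different diets per region. Hypothalamus and prefrontal cortex differed for 4 of 9 genes, against 48.0% of all genes. Of the 4, 2 were higher in hypothalamus (26.7% of all genes) and 2 lower (21.3%). Tsc22d3 was higher in hypothalamus by 0.47 ± 0.10 (adjusted p = 0.0073 in limma) and Mt2 by 0.76 ± 0.10 (adjusted p = 0.0010 in limma). Pdk4 was lower in hypothalamus by 0.47 ± 0.11 (adjusted p = 0.011 in limma) and Klf9 by 1.70 ± 0.20 (adjusted p = 0.00046 in limma), a ratio of 3.24 in favour of prefrontal cortex. Each of these held its sign in 3 of 3 diets.

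Amygdala and hypothalamus differed for 2 of 9 genes, against 29.5% of all. Both were lower in amygdala, as 15.9% of all genes were and 13.5% were higher. The differences were -0.55 ± 0.10 for Tsc22d3 (adjusted p = 0.0070 in limma) and -0.42 ± 0.10 for Mt2 (adjusted p = 0.023 in limma). Amygdala and prefrontal cortex differed for 2 of 9, against 22.3% of all, and both were again lower in amygdala, as 10.2% of all genes were, where 12.1% were higher. The estimates were -0.44 ± 0.11 for Pdk4 (adjusted p = 0.027 in limma) and -1.24 ± 0.20 for Klf9 (adjusted p = 0.0050 in limma). In either direction none of the 3 shares called among the 9 genes was above that of all genes. By direction, 2 of 9 was above the share of all genes for lower in amygdala in both contrasts and for lower in hypothalamus than in prefrontal cortex, each time resting on 2 genes.

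By mean level, Mt2 was ordered hypothalamus (6.02), amygdala (5.60) and prefrontal cortex (5.26), and the last pair did not differ beyond the threshold (0.34 ± 0.10, adjusted p = 0.059 in limma). Tsc22d3 was highest in hypothalamus (2.48), with prefrontal cortex (2.01) and amygdala (1.93) not told apart. Klf9 was highest in prefrontal cortex (3.12), above amygdala (1.88) and hypothalamus (1.42), which differed by 0.46 ± 0.20 (adjusted p = 0.13 in limma). Pdk4 was also highest in prefrontal cortex (-0.49), with amygdala (-0.93) and hypothalamus (-0.95) close together. Mt1 had the order of Mt2 in its means (4.70 in hypothalamus, 4.38 in amygdala and 4.20 in prefrontal cortex), with no pair past the threshold in the main fit. Mt1 passed in limma for hypothalamus over prefrontal cortex with normexp (adjusted p = 0.039), quantile scaling (0.031), trended variances (0.041) and without AD (0.027). Without AD it also passed for hypothalamus over amygdala (0.039 in limma). Mt2 passed in limma for amygdala over prefrontal cortex with quantile scaling (adjusted p = 0.023) and trended variances (0.031). It also passed with the percentile over spots above background on all arrays (0.031).

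**Figure D5:**
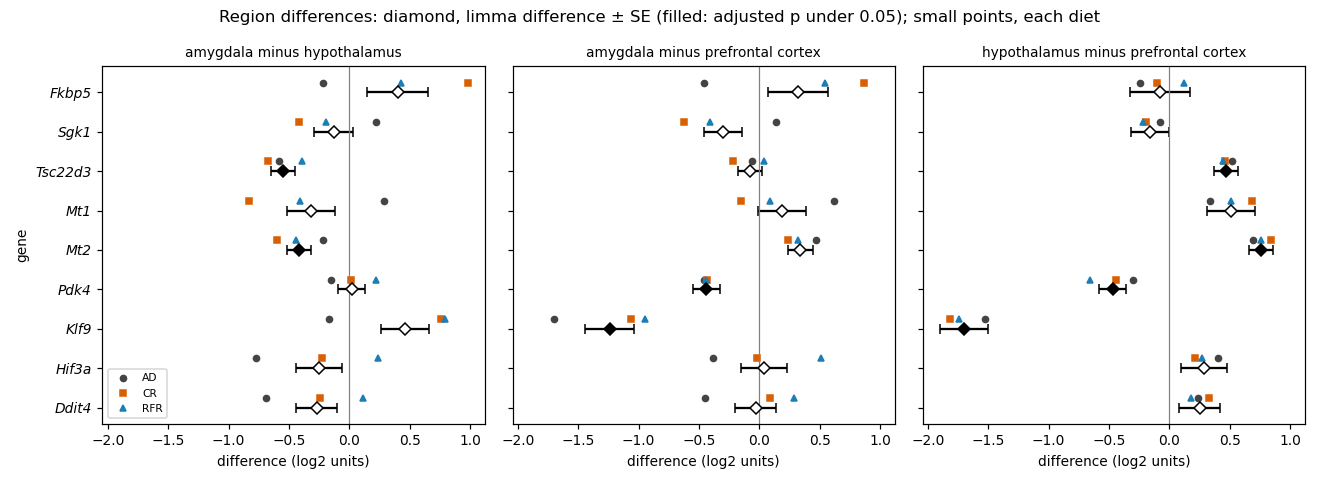
Differences between regions in log2 units (horizontal axes) for the 9 genes (vertical axis). Diamonds with bars are limma estimates ± SE, filled where the adjusted p was under 0.05, and small symbols are the single diets. Klf9 lies farthest from 0, at -1.70 for hypothalamus minus prefrontal cortex and at -1.24 for amygdala minus prefrontal cortex.

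Several of these calls were lost with a pool left out, mostly at a similar estimate. Without the RFR arrays no gene of the 9 was called between amygdala and hypothalamus or between amygdala and prefrontal cortex. The estimate for Klf9 in the latter was then -1.38 ± 0.26 (adjusted p = 0.055 in limma). Without the CR arrays Tsc22d3 (-0.48 ± 0.13, adjusted p = 0.066) and Mt2 (-0.33 ± 0.13, adjusted p = 0.16) were no longer called between amygdala and hypothalamus in limma. Pdk4 was no longer called between amygdala and prefrontal cortex without AD (-0.43, adjusted p = 0.068), without RFR (-0.44, 0.15) or without CR (-0.45, 0.14) in limma, against -0.44 with all arrays, nor without the filter on dim genes (0.053). Between hypothalamus and prefrontal cortex, Pdk4 was lost without RFR (-0.37, adjusted p = 0.12) and without CR (-0.48, 0.064), and Tsc22d3 without RFR (0.49, 0.063), in limma. With slide as a term the adjusted p in limma was 0.092 for Mt2 between amygdala and hypothalamus, and for Pdk4 it was 0.18 between amygdala and prefrontal cortex and 0.058 between hypothalamus and prefrontal cortex. Klf9 and Mt2 kept their call between hypothalamus and prefrontal cortex under all alternatives run. The fits with a pool left out had fewer arrays, and 1429 genes in all passed between amygdala and hypothalamus without RFR against 3717 with it.

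Fkbp5 did not differ between regions by the brightest probe, whose estimates were 0.40 ± 0.25 for amygdala minus hypothalamus and 0.32 ± 0.25 for amygdala minus prefrontal cortex. The other 2 probes were higher in amygdala than in either other region in 3 of 3 diets. For A_52_P481493 the estimate was 0.75 ± 0.13 in both contrasts (adjusted p = 0.0082 against hypothalamus and 0.010 against prefrontal cortex, over all probes in limma). For A_52_P337899 it was 0.51 ± 0.14 in both (adjusted p = 0.037 and 0.045 in limma). By the second Klf9 probe, amygdala also exceeded hypothalamus, by 0.91 ± 0.13 (adjusted p = 0.0032 in limma).

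Oligodendrocyte markers differed in the same direction as Mt2 between regions. All 11 measured were higher in hypothalamus than in prefrontal cortex at an adjusted p under 0.05 in limma, with a median of 1.28, and 9 of 11 were higher in hypothalamus than in amygdala. Among astrocyte markers, 8 of 10 had a higher estimate in hypothalamus than in prefrontal cortex (median 0.32), with 3 called higher and 1 lower. In amygdala 7 of 10 had a lower estimate than in hypothalamus (median -0.21), with 1 called lower and 1 higher. Against prefrontal cortex 5 had a higher and 5 a lower estimate in amygdala, with 3 called higher and 0 lower. Of 8 choroid plexus markers, 7 were called higher in hypothalamus than in prefrontal cortex (median 3.22). Only 3 of the 8 were well above background on all 9 arrays, so the size of that median is uncertain. Of 10 neuron markers, 6 were called lower in hypothalamus than in prefrontal cortex (median -0.78) and 0 higher. Microglia, endothelial and mural, and meningeal lists each had 5 called lower there. The part of these transcripts in the region differences of Mt2, Tsc22d3, Klf9 and Pdk4 was not tested.

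Genes that set the response to corticosterone were examined beside these targets. The list held Nr3c1 (the glucocorticoid receptor), Nr3c2 (the mineralocorticoid receptor), Hsd11b1 and Hsd11b2 (the enzymes that regenerate and inactivate glucocorticoids), Abcb1a (an efflux transporter of the blood-brain barrier), and the receptor co-chaperones Fkbp4, Hsp90aa1 and Ptges3. Of the 8, 6 were fitted. Nr3c2 matched no probe and was not analysed here, and Hsd11b2 was well above background on 1 array. None of the 6 passed for any diet contrast, and the median difference of the list was -0.06 between CR and AD, -0.11 between RFR and AD and -0.02 between CR and RFR, each the first diet less the second.

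Nr3c1 read -0.65, -1.14 and -0.86 on AD, CR and RFR in the amygdala, -0.65, -0.97 and -0.77 in the hypothalamus, and -0.31, -0.36 and -0.41 in the prefrontal cortex. It was lower than in prefrontal cortex by 0.52 ± 0.11 in amygdala (adjusted p = 0.017 in limma) and by 0.44 ± 0.11 in hypothalamus (adjusted p = 0.016 in limma). Hsd11b1 read 0.60, 0.21 and -0.05 in the amygdala, 0.86, 0.81 and 0.49 in the hypothalamus, and 1.43, 1.52 and 1.24 in the prefrontal cortex, with RFR lowest in each region. Its RFR minus AD was -0.40 ± 0.12 (adjusted p = 0.69 in limma). It was highest in prefrontal cortex, and all 3 region contrasts passed.

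Among the other 4, Hsp90aa1 had CR minus AD of -0.44 ± 0.12 (adjusted p = 0.21 in limma) and Abcb1a had CR minus AD of 0.66 ± 0.17 (adjusted p = 0.21 in limma), each with its sign in 3 of 3 regions. Abcb1a was lower in hypothalamus than in prefrontal cortex by 0.72 ± 0.17 (adjusted p = 0.013 in limma). Fkbp4 and Ptges3 were higher in hypothalamus than in prefrontal cortex, by 0.75 ± 0.21 and 0.26 ± 0.09 (adjusted p = 0.024 and 0.048 in limma).

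The zinc list held Mt3 and Mt4 (the metallothioneins of brain and of stratified epithelia), Mtf1 (the metal-responsive transcription factor), Slc30a1 and Slc30a3 (zinc exporters of the plasma membrane and of synaptic vesicles) and Slc39a10 (a zinc importer). All 6 were fitted and none passed for any diet contrast. In the hypothalamus all 6 were higher on CR than on RFR, by 0.04 to 0.60, as were 7107 of 12617 genes in all. In the amygdala 3 of 6 were higher on CR and in the prefrontal cortex 4 of 6. The median over the regions was 0.24 for CR minus RFR and -0.15 for RFR minus AD.

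Slc30a1, a known target of MTF1, read 1.43, 0.75 and 0.35 on AD, CR and RFR in the amygdala, 0.32, 0.69 and 0.24 in the hypothalamus, and 0.19, 0.45 and 0.13 in the prefrontal cortex. This is the diet order of Mt1 in each region, with RFR lowest throughout. Its CR minus RFR was 0.39 ± 0.22 (adjusted p = 0.46 in limma). Genes of other lists had that order too, among them Cebpd, Hba-a1, P2ry12, Cldn5 and Ly6c1, and other genes of those lists did not. The share of all genes with that order was not computed, while RFR was lowest in all 3 regions for 4.71%. Mt3 read 2.81, 2.02 and 2.34 in the amygdala, 2.25, 3.07 and 2.46 in the hypothalamus, and 2.37, 2.67 and 2.42 in the prefrontal cortex, so RFR was the lowest diet in no region. Its CR minus RFR was 0.18 ± 0.27 (adjusted p = 0.80 in limma).

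Mtf1 was lower on CR than on AD in 3 of 3 regions (-0.50 ± 0.17, adjusted p = 0.24 in limma), and it was higher in hypothalamus than in prefrontal cortex by 0.85 ± 0.17 (adjusted p = 0.0050 in limma). Slc30a3 read 1.18, 0.74 and 0.60 on AD, CR and RFR in the prefrontal cortex and -4.70, -4.57 and -4.70 in the hypothalamus, where it was well above background on 1 of 3 arrays, so no size is given for that difference. Slc39a10 was also lower in hypothalamus than in prefrontal cortex, by 1.73 ± 0.16 (adjusted p = 0.00015 in limma). Mt4 was dim, between -5.06 and -3.92, and was well above background on 8 arrays.

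A further list of 32 glucocorticoid-responsive genes had 28 fitted. None passed for any diet contrast in limma. At an unadjusted p under 0.05, 9 were higher and 2 lower on CR than on RFR, where 6.61% and 8.17% of all genes were. On RFR against AD 1 was higher and 2 lower (2.73% and 3.42% of all), and on CR against AD 3 were higher and 3 lower (5.99% and 10.5% of all). In the hypothalamus 24 of the 28 were higher on CR than on RFR, with a median of 0.16, where 7107 of 12617 genes were higher with a median of 0.04. In the amygdala the count was 15 of 28 and in the prefrontal cortex 14 of 28. On the same hypothalamus arrays the 10 meningeal fibroblast markers given above were all higher on CR, by 0.41 to 1.60. So were 10 of 12 endothelial and mural markers, with a median of 0.22 and a summed level of 56.8 against 47.7. All 4 blood markers (median 1.95), all 11 oligodendrocyte markers (median 0.26) and 7 of 8 microglia markers (median 0.16) were also higher. Of 6 pituitary markers 2 were higher, and of 7 cortical excitatory neuron markers 3 were. The part of these transcripts in the values of the list was not tested.

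Between hypothalamus and prefrontal cortex 8 of the 28 were called higher and 11 lower in hypothalamus, where 26.7% and 21.3% of all genes were. The 6 genes of this list with the smallest adjusted p were Crhr1 (the receptor of corticotropin-releasing hormone), Mertk (a phagocytic receptor kinase), Fam107a, Arl4d, Pomc (the precursor of ACTH) and Plin4 (a lipid droplet protein). In hypothalamus minus prefrontal cortex the estimates were -2.41 ± 0.14 for Crhr1, -1.45 ± 0.11 for Mertk, -1.17 ± 0.11 for Fam107a and -1.70 ± 0.16 for Arl4d. They were 4.28 ± 0.41 for Pomc and 1.29 ± 0.13 for Plin4.

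Plin4 had the diet order of Mt1 in hypothalamus and prefrontal cortex. It read -0.51 on AD, 0.03 on CR and -0.76 on RFR in the hypothalamus and -1.81, -1.45 and -1.86 in the prefrontal cortex. Its CR minus RFR was 0.51 ± 0.13 (adjusted p = 0.19 in limma). The share of all genes with that order in those regions was not computed. Pomc read 0.29, -0.24 and 1.84 on AD, CR and RFR in the amygdala, -0.18, -0.44 and 0.64 in the prefrontal cortex, and 4.88, 3.92 and 4.07 in the hypothalamus. RFR was thus the highest diet for Pomc in amygdala and prefrontal cortex but below AD in hypothalamus, while Prl and Gh were above background on the RFR arrays of all 3 regions.

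Over all 9 arrays the genes with the most similar profile were taken from 11231 genes well above background on every array. For Fkbp5 (brightest probe) these were Baz1b (r = 0.951), Bms1 (0.947) and Eya2 (0.926). For Sgk1 they were Adat2 (0.943), Scg3 (0.921) and Fundc2 (0.920). For Tsc22d3 they were Creb3l2 (0.983), Timm50 (0.973) and Acot7 (0.973), and for Mt1 they were Cntnap2 (0.951), Lsm3 (0.948) and Rmdn1 (0.945). Mt2 was not among the 3 nearest to Mt1, with r = 0.84. These r values describe 9 arrays that share regions and pools.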

How the data were processed

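The arrays were read with Agilent Feature Extraction 9.5.1.1, per the file headers, and the deposited processed signals are background-subtracted spot intensities on a linear scale. The authors also deposited a value table of ratios of each RFR or CR array to the AD array of its region, which was used only as an alternative; 99.3 to 99.4% of its values lay within 0.01 log2 units of the scanner ratio after a constant per array. From the deposited intensity, log2 was taken and the array's 75th percentile over 43379 noncontrol spots subtracted. Outlier spots were dropped, spots of a probe averaged, and the probe with the highest mean stood for a gene. Deposited flags (other values: well above background, saturation, outlier) set the filter of at least 3 arrays well above background and 6 with a value, leaving 12619 genes.

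A model of region plus diet was fitted over all 9 arrays with limma 3.58.1 (R 4.3.3; 4 residual degrees of freedom), with Benjamini-Hochberg adjustment over all genes and a threshold of 0.05. The fit was also run on simulated data with independent noise on each array, which cannot show how shared pools or slides act on it. Differences within a region have no test. Members, lists and tests were chosen with earlier results of these data known. All 9 genes with a probe are named, with every gene of the receptor and zinc lists, up to 6 of the further list by smallest adjusted p, and the 3 nearest profiles for 4 genes. Promoter sequences and gene positions are RefSeq's on GRCm38.p6; 9 of 10 genes had a window. Alternatives are listed in the closing section, with the other probes added after seeing the data.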

Additional observations from a re-analysis of the deposited data

How the results depend on the processing

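The diet term already set regions against each other within a diet's pools. Beyond it, no paired analysis was possible because each region and diet had 1 array and the labels give no replicate numbers. None of the 9 genes was called for a diet under any alternative except CR minus AD without the amygdala (3 genes, given above). The alternatives for diets included a fit without the CR amygdala array alone. The number called was, for amygdala minus hypothalamus, 4 with the mean of all probes, 1 with slide as a term, and 0 to 5 with a diet left out. For amygdala minus prefrontal cortex it was 4 with the mean of all probes, 1 with no filter, 1 with slide, and 0 to 3 with a diet left out. It was 3 there with quantile scaling, with trended and robust variances, and with the percentile over spots above background on all arrays. For hypothalamus minus prefrontal cortex it was 5 with normexp, with quantile scaling and with trended and robust variances, 3 with slide, and 2 to 5 with a diet left out. A filter for genes well above background on all 9 arrays gave the main number in each contrast. Within regions 0 differences reached 1 log2 unit with quantile scaling, 4 with the authors' table and 2 with the percentile over spots above background on all arrays, against 1. The other probes of Fkbp5, Tsc22d3 and Klf9 were an alternative chosen after seeing the data.

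Differences that changed sign were uncalled ones. The fit with slide as a term in effect leaves out the CR amygdala array, which was alone on its slide. With slide as a term, amygdala minus hypothalamus was 0.04 for Sgk1, amygdala minus prefrontal cortex was -0.20 for Fkbp5 and -0.10 for Hif3a, CR minus AD was -0.74 for Fkbp5, RFR minus AD was -0.14 for Fkbp5 and -0.16 for Hif3a, and CR minus RFR was 0.05 for Pdk4 and -0.02 for Ddit4. With the mean of all probes, Hif3a was 0.19 for amygdala minus hypothalamus and -0.09 for RFR minus AD, Fkbp5 was -0.13 for CR minus AD, and Klf9 was 0.13 for CR minus RFR. Quantile scaling gave -0.11 for Hif3a and 0.08 for Ddit4 (amygdala minus prefrontal cortex), 0.03 for Ddit4 (CR minus AD) and 0.01 for Pdk4 (CR minus RFR), and normexp gave -0.14 for Hif3a (amygdala minus prefrontal cortex). The authors' table gave 0.08 for Ddit4 (CR minus AD) and 0.05 for Pdk4 (CR minus RFR), where the other percentile gave 0.02 and 0.00. By other probes, Fkbp5 was 0.00 by both for hypothalamus minus prefrontal cortex, -0.18 (RFR minus AD) and 0.19 (CR minus RFR) by A_52_P337899 and -0.56 (CR minus AD) by A_52_P481493, Tsc22d3 was 0.07 (CR minus RFR), and Klf9 was 0.05 (CR minus AD) and 0.44 (CR minus RFR).

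With a pool or region left out, amygdala minus hypothalamus ran from -0.31 to 0.01 for Sgk1, -0.07 to 0.11 for Pdk4 and -0.50 to 0.01 for Hif3a. Amygdala minus prefrontal cortex ran from -0.03 to 0.36 for Mt1, -0.20 to 0.25 for Hif3a and -0.18 to 0.19 for Ddit4, and hypothalamus minus prefrontal cortex from -0.17 to 0.01 for Fkbp5. CR minus AD ran from -0.27 to 0.40 for Fkbp5, -0.08 to 0.12 for Mt2 and -0.20 to 0.08 for Ddit4. RFR minus AD ran from -0.04 to 0.46 for Fkbp5 and -0.24 to 0.27 for Hif3a, and CR minus RFR from -0.36 to 0.05 for Fkbp5 and -0.09 to 0.02 for Pdk4. The cause of these changes was not tested. Over the alternatives CR minus RFR stayed within 0.81 to 1.23 for Mt1 (adjusted p 0.067 to 0.76 in limma), 0.49 to 0.63 for Mt2 (0.076 to 0.80) and 0.52 to 0.83 for Sgk1 (0.11 to 0.80), and RFR minus AD within -0.61 to -0.26, -0.56 to -0.38 and -0.49 to -0.20. Genes called in all varied from 0 to 1233 for CR minus AD, 0 to 13 for RFR minus AD and 0 to 41 for CR minus RFR.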
